A study of Homo sapiens with 4 samples.

Results

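The genes described here are 9 members of the interferon sensing and STAT-IRF signalling pathway, chosen as a fixed list: the RNA sensors IFIH1, RIGI (formerly DDX58) and DHX58, the adaptor MAVS, the kinase TBK1, and the transcription factors IRF3, IRF7, IRF9 and STAT2. They are 9 of the 25121 genes with a symbol on the array and are read by 14 of its 35080 probes with a symbol. The list goes by name, with no threshold on a measured value, but was chosen with earlier results of these data known. IFIH1, whose protein is also called MDA5, and RIGI are helicases that bind viral or endogenous double-stranded RNA in the cytoplasm. DHX58, also called LGP2, is a related helicase without a signalling domain that modulates the other sensors. Activated sensors assemble MAVS on mitochondria, and MAVS recruits TBK1, which phosphorylates IRF3 and IRF7 so that they enter the nucleus and switch on interferon genes. Secreted type I interferon then acts through its receptor and JAK kinases on STAT2, which joins IRF9 in the complex ISGF3. ISGF3 binds interferon-stimulated response elements (ISREs). IFIH1, RIGI, DHX58, IRF7, IRF9 and STAT2 are themselves known to be interferon-inducible, while TBK1 and IRF3 are known for being made at a steady level in most cells.

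RNA came from PC3 and DU145, 2 established human prostate cancer cell lines that grow without androgen, the first from a bone and the second from a brain metastasis. The labels call the cells of each line transduced, with an shRNA against luciferase as the control (PC3-shC and DU145-shC) or with an shRNA against ESS2 (PC3-shESS2 and DU145-shESS2), a nuclear protein found with the spliceosome and also described as a transcriptional coregulator. The study's methods instead describe stable PC3 cells made by transfecting an ESS2 or a negative control shRNA plasmid and selecting with puromycin, and give no such account for DU145. All cells were grown in serum-containing RPMI medium, and no interferon or viral RNA is named among the treatments. Each of the 4 conditions was measured on 1 one-colour Agilent array, so a difference within a line has no replicate check and carries no p-value.

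Values are log2 of the background-subtracted processed signal, relative to the 75th percentile of the array, and compare the arrays within a gene only. In this unit the ESS2 probe read -0.98 in PC3-shC and -2.44 in PC3-shESS2, and -1.31 in DU145-shC and -3.66 in DU145-shESS2, so it was 2.74-fold lower in PC3-shESS2 and 5.09-fold lower in DU145-shESS2. The ratios of GAPDH (0.18 and 0.04) and ACTB (0.15 and -0.04) were small. Between 50.8 and 52.6% of the non-control spots on an array were well above background, and none was saturated. Probes spotted 10 times on each array gave a median SD of a log2 ratio of 0.084 in PC3 and 0.0821 in DU145, which covers the spots and neither the hybridization nor the cells. All 4 epithelial markers examined were well above background on every array, 3 or 4 of 5 leukocyte markers and 2 of 4 fibroblast markers were as well, and 1 of 3 luminal prostate markers was, KLK3 being among those that were not. Marker levels were not constant: the epithelial gene EPCAM read 3.32 in DU145-shC and 0.71 in DU145-shESS2, and the monocyte gene CD14 read -0.25 in PC3-shC and -2.41 in PC3-shESS2, and their part in the results was not tested. CTNNA1, a gene known to be lost in PC3, was not well above background on the PC3 arrays and was so on both DU145 arrays. Each line had its own slide, scan and annotation release of the array, so line and slide cannot be told apart in any comparison between lines.

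The sequences upstream of the start sites are shown first, because several of these genes are known targets of the pathway they serve. A RefSeq promoter table (GRCh38.p14) held 6 of the 9 genes, namely IFIH1, RIGI, MAVS, TBK1, IRF9 and STAT2. DHX58, IRF3 and IRF7 are named only. The windows were searched on both strands for the ISRE core, a pair of GAAA with 2 bases between, and for the gamma-activated site (GAS) TTCNNNGAA, which STAT dimers recognise, and, after the sequences had been read, for the tighter pair GAAANGAAA, with 1 base between. Given here are the 250 bases upstream for the sensors that stood highest in PC3 over DU145 and for the pair of ISGF3 subunits, 5′ to 3′ in the direction of the gene, with matches to any of the 3 motifs in capitals.
IFIH1, chr2:162318685-162318934, minus strand: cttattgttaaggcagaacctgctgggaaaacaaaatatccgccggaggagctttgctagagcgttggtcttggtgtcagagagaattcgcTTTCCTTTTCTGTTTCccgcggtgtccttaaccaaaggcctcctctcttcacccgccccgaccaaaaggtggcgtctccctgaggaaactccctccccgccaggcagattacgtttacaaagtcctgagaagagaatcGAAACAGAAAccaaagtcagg
RIGI, chr9:32526197-32526446, minus strand: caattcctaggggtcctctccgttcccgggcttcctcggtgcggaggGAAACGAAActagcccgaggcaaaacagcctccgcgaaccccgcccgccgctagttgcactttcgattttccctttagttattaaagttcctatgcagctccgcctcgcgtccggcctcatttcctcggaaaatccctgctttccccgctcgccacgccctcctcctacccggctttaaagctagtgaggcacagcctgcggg
IRF9, chr14:24161015-24161264, plus strand: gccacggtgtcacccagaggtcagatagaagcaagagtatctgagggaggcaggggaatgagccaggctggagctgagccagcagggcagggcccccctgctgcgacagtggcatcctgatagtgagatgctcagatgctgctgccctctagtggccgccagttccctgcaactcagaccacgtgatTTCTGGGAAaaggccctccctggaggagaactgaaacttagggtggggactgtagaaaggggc
STAT2, chr12:56360108-56360357, minus strand: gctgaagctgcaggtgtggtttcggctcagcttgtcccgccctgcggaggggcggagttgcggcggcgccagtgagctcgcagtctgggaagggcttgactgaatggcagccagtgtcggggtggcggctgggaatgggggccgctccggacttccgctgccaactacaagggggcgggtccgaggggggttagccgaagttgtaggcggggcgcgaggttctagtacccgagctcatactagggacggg

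The ISRE core occurred in 3.57% of the 35116 promoter windows of the table and in 1 of the 6 windows of these genes, that of IFIH1. There it matched 3 times, starting 159, 153 and 21 bases before the start site, and the matches at 159 and 153 overlap. The GAS was in 7.66% of all windows and in that of IRF9 among these genes, starting 63 bases before the start site. The tighter pair was in 3.12% of all windows and in that of RIGI, starting 203 bases before the start site. The windows of STAT2, MAVS and TBK1 held none of these motifs. A match is a description of the sequence, since no binding was measured on these arrays.

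The 9 genes fell into 3 patterns over the 4 arrays. IFIH1, RIGI and MAVS were high on both PC3 arrays and low on both DU145 arrays, whichever shRNA the cells carried. IRF7, IRF9 and STAT2 were highest in PC3-shC alone and lower in PC3-shESS2, while the DU145 arrays lay close together. TBK1 and IRF3 differed little between any of the arrays, and DHX58, the exception to all 3 patterns, was measured in DU145 only.

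**Figure D1:**
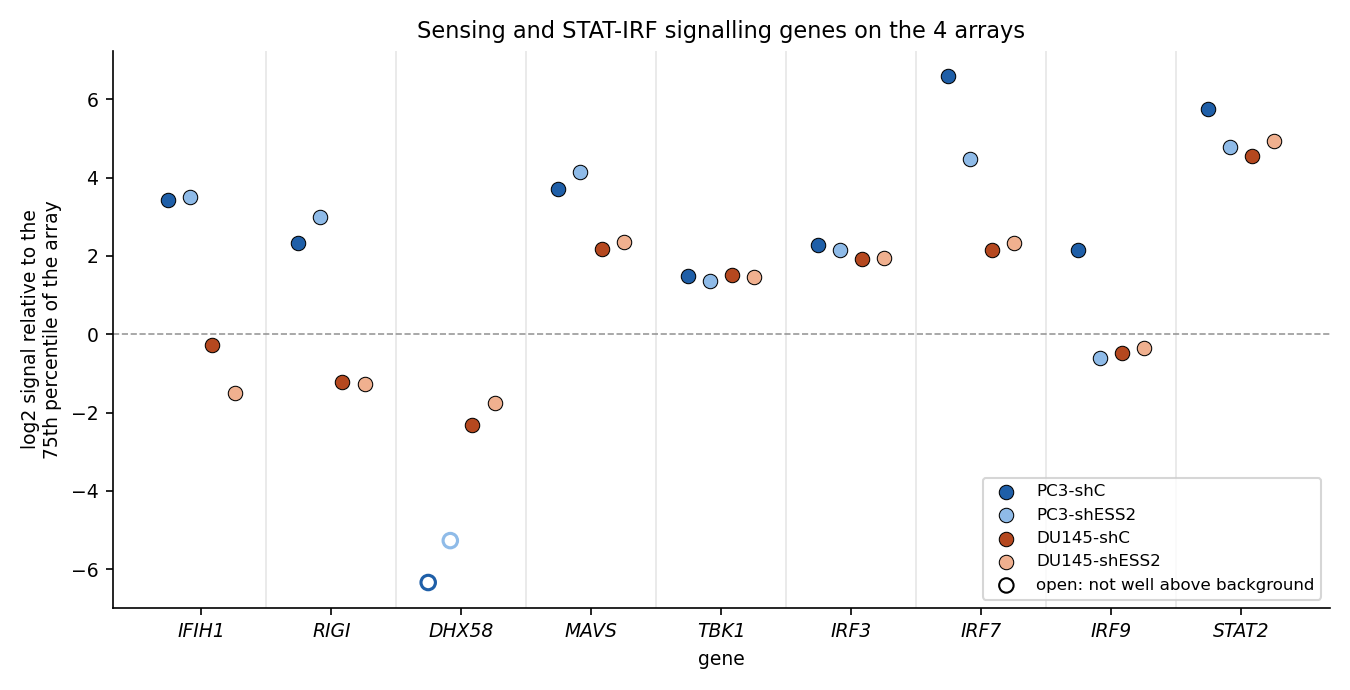
Level of each gene on the 4 arrays, as log2 signal relative to the 75th percentile of the array (vertical axis; 1 point per array, 1 array per condition, no error bars). Points are to be compared within a gene: IRF7 stands at 6.59 in PC3-shC and 4.48 in PC3-shESS2, IFIH1 at 3.42 and 3.5 on the PC3 arrays, and the open circles of DHX58 in PC3 are not well above background.

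Among the sensors, IFIH1 was the one over 2-fold lower in DU145 after ESS2 knockdown. The IFIH1 probe, the only one for this gene, read 3.42 in PC3-shC, 3.5 in PC3-shESS2, -0.27 in DU145-shC and -1.49 in DU145-shESS2, from processed signals of 2820, 3280, 176 and 77.7. In DU145 it was therefore 2.33-fold lower with the ESS2 shRNA (log2 ratio -1.22), rank 140 from the lowest of 15933 genes measured on both DU145 arrays. With normexp background correction this ratio was -0.87, inside the 2-fold limit. In PC3 the log2 ratio was 0.08, within the spread between spots. Before knockdown IFIH1 was 12.9-fold higher in PC3-shC than in DU145-shC, so DU145-shESS2 held the lowest level of this sensor and both PC3 arrays the highest.

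RIGI showed the same contrast between the lines, and its larger knockdown ratio was in PC3, toward a higher level. Its representative probe read 2.34 in PC3-shC, 3.0 in PC3-shESS2, -1.22 in DU145-shC and -1.26 in DU145-shESS2. The gene was 1.58-fold higher in PC3-shESS2 than in PC3-shC (log2 ratio 0.66), and the second probe gave 0.72. In DU145 both probes were close to 0, at -0.04 and -0.1. PC3-shC exceeded DU145-shC by 11.8-fold on the representative probe and 23.3-fold on the other.

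DHX58 ran opposite to the other 2 sensors between the lines. In PC3 its probe failed to stand well above background on both arrays, with processed signals of 3.25 in PC3-shC and 7.52 in PC3-shESS2, and was well above background in DU145-shC at 42.4 and in DU145-shESS2 at 64.5. DHX58 was thus at least 5.88-fold lower in PC3-shC than in DU145-shC, where the bound sets the dim array at the lowest signal of a probe well above background, 8.94. With normexp background correction the log2 ratio was -0.95, inside the 2-fold limit. No fold is given for PC3 knockdown, as both arrays were dim. In DU145 the gene was 1.48-fold higher in DU145-shESS2 (log2 ratio 0.56). In RNA from a whole culture, fewer cells with a transcript and less transcript per cell cannot be told apart.

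MAVS, the adaptor shared by IFIH1 and RIGI, was higher in PC3 and showed no single direction after knockdown. The representative probe read 3.71 in PC3-shC, 4.14 in PC3-shESS2, 2.17 in DU145-shC and 2.36 in DU145-shESS2, giving log2 ratios of 0.43 in PC3 and 0.19 in DU145. The 4 MAVS probes disagreed: in PC3 they ran from -0.25 to 0.43, with 2 higher and 2 lower, and in DU145 from -0.24 to 0.32. All 4 were higher in PC3-shC than in DU145-shC, by log2 ratios of 0.28 to 1.75, and the representative probe was 2.92-fold higher. The probe at 0.28 was annotated to another MAVS transcript than the other 3.

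TBK1, the kinase downstream of MAVS, differed little between the 4 arrays. It read 1.48, 1.36, 1.51 and 1.47 in PC3-shC, PC3-shESS2, DU145-shC and DU145-shESS2. The log2 ratios were -0.12 after knockdown in PC3, -0.04 after knockdown in DU145 and -0.03 for PC3-shC over DU145-shC. Between the lines this order depended on the scaling, since TBK1 was higher in PC3 (0.42) when arrays were scaled to their medians and lower (-0.48) in the authors' scaled values.

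The 2 interferon regulatory factors that TBK1 phosphorylates behaved differently. IRF3 read 2.27, 2.16, 1.92 and 1.95 on the same 4 arrays, so its ratios were -0.11 in PC3 and 0.03 in DU145, and its second probe gave -0.22 and -0.14. IRF7, which amplifies the interferon response once induced, read 6.59 in PC3-shC, 4.48 in PC3-shESS2, 2.14 in DU145-shC and 2.32 in DU145-shESS2. The IRF7 signal was 25300 in PC3-shC against 6490 in PC3-shESS2, which after scaling was 4.30-fold lower (log2 ratio -2.1), rank 115 from the lowest of 15763 genes measured on both PC3 arrays. In DU145 the ratio was 0.19.

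IRF7 also had the largest difference between the control arrays among the 9 genes when each is read by its representative probe. It was 21.9-fold higher in PC3-shC than in DU145-shC, rank 126 from the highest of 14961 genes measured on both. After knockdown the PC3 level remained 5.09-fold above that of DU145-shC. IRF3 differed 1.28-fold between the control arrays on its representative probe, where the direction turned to -0.1 in the authors' scaled values. Its second probe was 1.63-fold higher in PC3-shC.

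The ISGF3 subunits IRF9 and STAT2 were both lower in PC3-shESS2 and neither was lower in DU145-shESS2. IRF9, the DNA-binding subunit, read 2.14 in PC3-shC, -0.6 in PC3-shESS2, -0.47 in DU145-shC and -0.35 in DU145-shESS2. Its signal went from 1160 to 191 in PC3, a 6.70-fold lower level (log2 ratio -2.74), rank 63 from the lowest of 15763. PC3-shC thus stood alone, and the other 3 arrays lay within a narrow band: IRF9 in PC3-shESS2 differed from DU145-shC by -0.13 on the log2 scale. In DU145 the knockdown ratio was 0.12.

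STAT2, which carries the activation domain of ISGF3, read 5.75 in PC3-shC, 4.78 in PC3-shESS2, 4.56 in DU145-shC and 4.92 in DU145-shESS2. It was 1.96-fold lower in PC3-shESS2 (log2 ratio -0.97), just inside the 2-fold limit, and 1.28-fold higher in DU145-shESS2 (log2 ratio 0.36). With arrays scaled to their medians the PC3 ratio was -1.08, past the limit. PC3-shESS2 and DU145-shC differed by 0.23 for STAT2, against 1.2 (2.29-fold) between the control arrays. That difference between the controls was 0.63 with quantile normalization and 0.75 in the authors' scaled values, inside the 2-fold limit.

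In counts, 2 of the 8 genes compared in PC3 were over 2-fold lower with the ESS2 shRNA, IRF7 and IRF9, and 0 were over 2-fold higher. Over all 16764 genes compared in PC3, 3.87% were over 2-fold lower and 3.88% higher. In DU145, 1 of 9 was over 2-fold lower, IFIH1 (0 with normexp), and 0 were higher, against 2.47% lower and 2.36% higher of 16842 genes. Between the control arrays 6 of 9 were over 2-fold higher in PC3-shC (IFIH1, RIGI, MAVS, IRF7, IRF9 and STAT2) and 1 was lower (DHX58), where 22.1% of 17475 genes were higher and 19.9% lower. DHX58 entered as a bound, through the DU145-shC array alone. With quantile normalization and in the authors' scaled values 5 were higher, and with normexp 0 were lower. The median log2 ratio of the members was -0.11 in PC3 and 0.12 in DU145, beside -0.055 and -0.022 over all genes compared. Between the control arrays it was 1.55, beside 0.126. These comparisons share arrays, since PC3-shC and DU145-shC each enter both a knockdown ratio and the ratio between the lines.

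The response to knockdown was set side by side in the 2 lines, as the difference of the 2 log2 ratios, PC3 minus DU145. It was -2.86 for IRF9, -2.29 for IRF7 and -1.33 for STAT2, the 3 genes that were lower in PC3 and slightly higher in DU145. For IFIH1 it was 1.3, since the gene was lower in DU145 alone, and 0.99 with normexp background correction, inside 1 log2 unit. RIGI gave 0.7, MAVS 0.24, TBK1 -0.08 and IRF3 -0.14. So 4 of the 8 genes well above background on all arrays differed by over 1 log2 unit, where 8.37% of 14686 genes did, and a single array per condition leaves no test of this difference. The median SD of such a difference between spots was 0.119.

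A limma fit over all 4 arrays, with line and shRNA as terms and 1 residual degree of freedom, asked what the lines shared. For ESS2 shRNA over control it called 0 of 17126 genes (0.0%) at an adjusted p of 0.05, and 1047 had an unadjusted p under 0.05. None of the 9 was called or had such an unadjusted p. In this fit IRF9 differed by -1.31 (SE 0.753, limma adjusted p = 0.746), IRF7 by -0.96 (SE 0.611, adjusted p = 0.749) and IFIH1 by -0.57 (SE 0.376, adjusted p = 0.749), each from a difference seen in 1 of the lines. The ESS2 probe itself, lower in both, gave -1.9 (SE 0.289, adjusted p = 0.746).

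For PC3 over DU145 the same limma fit called 28.5% of genes higher and 23.8% lower, and 4 of the 9 were among the higher ones from values measured on all 4 arrays. IFIH1 was higher in PC3 by 4.34 (SE 0.376, adjusted p = 0.00442), RIGI by 3.91 (SE 0.252, adjusted p = 0.0027), MAVS by 1.66 (SE 0.187, adjusted p = 0.00658) and IRF7 by 3.31 (SE 0.611, adjusted p = 0.0184). The IRF7 call was lost without the filter on dim genes, where its limma adjusted p was 0.1. DHX58 entered the fit through the DU145 arrays alone, with both PC3 values set at the floor, so its limma p is not used. IRF9 (1.18, adjusted p = 0.253) and STAT2 (0.53, adjusted p = 0.301) were not called, and their 2 PC3 arrays differed by 2.74 and 0.97. IRF3 (0.28, adjusted p = 0.254) and TBK1 (-0.07, adjusted p = 0.758) were not called either. With 1 array per condition, the residual behind the p-values of this fit is how far the knockdown ratio differed between the lines. It was pooled with that of all genes and holds no replicate cultures. For the line term, the control and knockdown arrays of a line stand in as its replicates, and the slide goes together with the line.

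The other genes of the pathway were taken from 5 lists of 80 genes in all, also chosen with earlier results of these data known. In PC3, 72 of them could be compared, of which 10 were over 2-fold lower and 6 over 2-fold higher, or 22.2% where 7.75% of all genes compared were past 2-fold. In DU145 4 of 72 were lower and 2 higher, or 8.33% beside 4.83% of all genes. The median log2 ratio of the 80 genes was -0.08 in each line, and the limma fit called 0 of 74 of them for knockdown, with 8 at an unadjusted p under 0.05.

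Among the other STAT genes compared in PC3, none was over 2-fold higher, and STAT3, STAT5A and STAT5B were dim on both PC3 arrays. STAT5A was 2.05-fold lower in DU145-shESS2.

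Among sensors, adaptors and kinases, 6 of 36 were over 2-fold lower in PC3-shESS2 and 4 higher. IFI16, a nuclear DNA sensor, was 7.66-fold lower, IKBKE, the kinase related to TBK1, 3.75-fold, EIF2AK2, the RNA-activated kinase PKR, 2.93-fold, and TLR3, the endosomal RNA receptor, 2.67-fold. ADAR, which edits double-stranded RNA and keeps it from the sensors, was 2.26-fold lower, and the deubiquitinase CYLD 2.04-fold lower. Higher in PC3-shESS2 were TNFAIP3, an inhibitor of NF-κB signalling (2.92-fold), the helicase DDX60 (2.18-fold), the antiviral protein ZC3HAV1 (2.13-fold) and RNF125, a ubiquitin ligase that acts on RIGI (2.02-fold).

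In DU145 the same list had 2 of 33 genes over 2-fold higher and 2 lower. STING1, the adaptor of cytoplasmic DNA sensing, was 3.22-fold higher in DU145-shESS2 (log2 ratio 1.69) and 1.98-fold higher in PC3-shESS2. UNC93B1, which carries endosomal Toll-like receptors, was 2.01-fold higher. TNFAIP3 was 5.22-fold lower, opposite to PC3, and IKBKE 2.04-fold lower, the same direction as in PC3.

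Receptors and JAK kinases had 1 of 10 genes over 2-fold lower in PC3-shESS2, IFNGR1 (2.32-fold), and 1 higher, JAK2 (2.76-fold), and 0 of 10 past 2-fold in DU145. Among other IRFs and IRF2 binding proteins, IRF2BP2 was 2.11-fold lower in PC3-shESS2. IRF2 read 2.63-fold lower in PC3-shESS2 and IRF8 2.19-fold lower in DU145-shESS2, each well above background only on the control array of that line. Both folds use the dim reading as it stood, so they are not bounds. Of 16 feedback inhibitors 1 was past 2-fold in PC3, PIAS1, 2.47-fold higher, and 0 in DU145.

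Genes with the most similar pattern were found by the Euclidean distance of the 4 centred log2 values, over 14686 genes and 4 arrays. For IRF9 the nearest were IFI35 (distance 0.344), UBE2L6 (0.415) and FAM20C (0.498), and for IRF7 they were PLA2G4A (0.303), PARP9 (0.398) and SP110 (0.422). UBE2L6 encodes the conjugating enzyme for ISG15, and IFI35, PARP9 and SP110 are known as interferon-inducible. STAT2 lay nearest to ACSL5 (0.154), RGL1 (0.164) and MYC (0.168).

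The genes of the first pattern had other neighbours. IFIH1 was nearest to STAP2 (0.0372), ACOXL (0.138) and PPIF (0.365), RIGI had ALDOC (0.214) and MMP9 (0.22) among its nearest, and MAVS was nearest to CPSF1 (0.027), NAA30 (0.0717) and CHMP3 (0.0834).

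DHX58 was examined with the genes beside it, a step chosen after its values were seen. In RefSeq gene order, DHX58 and the next protein-coding genes KAT2A, HSPB9, RAB5C, KCNH4, HCRT, GHDC, STAT5B, STAT5A and STAT3 formed a run of 10 that stayed near background in PC3, none of them well above it in PC3-shC or PC3-shESS2. Of these 10, 8 were well above background in DU145-shC and 9 in DU145-shESS2. KAT2A, an acetyltransferase subunit of chromatin complexes, was at least 447-fold lower in PC3-shC than in DU145-shC, STAT5B at least 125-fold and STAT3 at least 41.5-fold. Over all genes well above background in DU145-shC, 6.59% were well above it on neither PC3 array. The neighbours on either side, C17orf113 and CAVIN1, were well above background on all 4 arrays, at -4.17 and 7.57 in PC3-shC. For C17orf113 this was close to the lowest level well above background on that array, -4.88. The gene after CAVIN1, ATP6V0A1, was again low in PC3, at -3.6 in PC3-shC and, not well above background, -4.83 in PC3-shESS2, against 4.3 in DU145-shC. DNA was not measured on these arrays, and the reason for the run was not tested.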

How the data were processed

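The authors deposited the scanner output of 4 one-colour arrays from Agilent Feature Extraction (12.1.0.3 for PC3 and 12.0.3.1 for DU145, per the file headers), with the intensity of each spot background-subtracted, and a table of scaled intensity values that equals the processed signal times 1 constant per array. The constants were 3.645 and 3.519 for PC3 and 6.171 and 6.089 for DU145.

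Control spots and outlier spots were left out (5 probes lost), spots of a probe were averaged, log2 was taken and the 75th percentile of the array subtracted. Probes were named through their accession and a RefSeq table (GRCh38.p14); 84.9% of probes had the same accession in both annotation releases. The probe with the highest mean represented a gene. A gene entered a comparison if 1 or both of its arrays were well above background. A dim value below the lowest signal well above background was raised to it, and a dim value above that signal was kept as read. Limma took the genes that passed on 2 or more arrays, with Benjamini-Hochberg adjustment. The members, the pathway lists and the tests were chosen with earlier results of these data known. Named are the members, ESS2, GAPDH, ACTB, markers, pathway genes past 2-fold after knockdown in a line (STAT3 and STAT5B come with DHX58), the 3 nearest patterns of members past 2-fold, and the neighbours of DHX58. Some genes of the lists are not reported here. The code was tested on simulated data. Python 3.11.15, pandas 2.3.3, R 4.3.3 and limma 3.58.1 were used.

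Alternatives were scaling to medians, quantile normalization, normexp (offset 50, on the median spot signal), 2 other filters on dim genes, plain dim signals, the mean of probes, outlier spots kept, probes with the same accession in both releases, the authors' scaled values and, for limma, no other term. The slide as a block was not run, because slide equals line.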

Additional observations from a re-analysis of the deposited data

Results flagged for a closer look

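For 6 of the genes the knockdown ratio had opposite signs in PC3 and DU145, each from 1 array per condition, and the difference between the lines was not tested. The difference, PC3 minus DU145 on the log2 scale, was -2.86 for IRF9, -2.29 for IRF7 and -1.33 for STAT2, lower in PC3-shESS2 and higher in DU145-shESS2. It was 1.3 for IFIH1 and 0.7 for RIGI, higher in PC3-shESS2 and lower in DU145-shESS2, though the IFIH1 ratio in PC3 (0.08) and the RIGI ratio in DU145 (-0.04) lay within the spread between spots; the former was -0.03 with arrays scaled to their medians. IRF3 gave -0.14, from ratios of -0.11 and 0.03, the latter -0.05 as the mean of its probes.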

How the results depend on the processing

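With 1 array per condition no value has a replicate error, and with normexp, which compresses dim signals, the number of members over 2-fold lower in DU145 went from 1 to 0 (IFIH1 -0.87) and that of pathway genes past 2-fold from 6 to 2. Over all genes normexp also cut the calls, from 650 higher and 649 lower to 245 and 320 in PC3, and from 397 and 416 to 139 and 77 in DU145. Without a filter on dim genes limma called 4974 genes between the lines in place of 8958, and the adjusted p of IRF7 there became 0.1. The direction turned in limma for TBK1 between the lines with median scaling (0.32), and for IRF3 with quantile normalization (0.03 for knockdown, -0.02 between the lines) and the authors' scaled values (0.02 and -0.13). The knockdown ratio of IRF9 in PC3 ranged from -2.85 to -2.48 over the alternatives, that of IRF7 from -2.21 to -1.92 and that of STAT2 from -1.08 to -0.79. DHX58 between the control arrays ranged from -4.02 to -0.95, a move of over 1.5 times; its cause was not tested beyond the handling of dim spots that the alternatives change. Median scaling moved the median of all genes between the control arrays from 0.13 to 0.58 and the authors' values to -0.34, so that the share of calls higher in PC3-shC was 72.1 and 31.7% in place of 52.6%; in PC3 knockdown median scaling made it 38.9%, where the main counts of 650 and 649 were even, and in DU145 normexp made it 64.4% in place of 48.8%. Of the other results, 456 for single genes and 69 counts were classed as held, though some of these counts changed. Pathway genes past 2-fold in PC3 went from 16 to 11 with normexp. Limma calls between the lines went from 4874 higher and 4084 lower to 7120 and 2867 with median scaling. In the authors' scaled values they were 3045 and 5950. Another 73 results for single genes moved by more than the spread between spots, small ones among them changing sign. The probes at low signal, IFIH1 in DU145-shESS2 (77.7) and DHX58, are limited by their distance from background.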

Other observations

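Several pathway genes past 2-fold after knockdown also differed widely between the control arrays. In PC3-shC over DU145-shC, IFI16 was at least 81.5-fold higher, DDX60 28.9-fold, TLR3 13.8-fold, IKBKE 12-fold and EIF2AK2 3.65-fold, while RNF125 was 18.7-fold lower and CYLD 2.65-fold lower. ZC3HAV1 and ADAR differed 1.02-fold and 1.46-fold. The 2 probes of ZC3HAV1 gave log2 ratios of 1.09 and 2.78 after knockdown in PC3 and -0.24 and -0.19 in DU145, and the 3 probes of UNC93B1 ran from -0.72 to -0.60 in PC3 and from 0.92 to 1.09 in DU145.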
